A study of Mus musculus with 58 samples.

Results

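Quant-seq counts of 3′ messenger RNA ends were compared between mouse embryonic stem (ES) cells at 0 h and after 8 h of all-trans retinoic acid (RA), in cells that kept the H3K4 methyltransferase subunit DPY30. The comparison rests on 4 of the 58 libraries of the series, 22 of which are Quant-seq: the 2 libraries labelled DMSO RA 0h and the 2 labelled DMSO RA 8h. Both groups were E14 cells of the 129/Ola background, derived as homozygous clones. Both alleles of Dpy30 in these cells carried the mAID degron tag, and a transposon supplied OsTIR1, the plant F-box protein that recognises the tag once auxin is present. Both groups received the vehicle DMSO and no auxin. The 0 h cells grew on gelatin in serum medium with leukaemia inhibitory factor (LIF), whereas the 8 h cells had spent 8 h in 1 µM RA without LIF. RA addition and LIF withdrawal therefore coincided, and their contributions cannot be told apart here. The labels do not say whether the 2 libraries of a group came from separate cultures, so the p-values measure the spread between libraries of a group, pooled over the 11 Quant-seq groups fitted together, which may be technical.

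RA enters cells by diffusion, is carried by cellular binding proteins and is broken down by CYP26 enzymes. In the nucleus it is the ligand of the RA receptors (RARs), which form heterodimers with retinoid X receptors on direct repeats of a short half-site and exchange corepressors for coactivators when RA binds. In embryos and in ES cells RA is known for switching on the 3′ genes of the Hox clusters, and for driving ES cells out of self-renewal towards neural and other fates. LIF acts in mouse ES cells through the LIF receptor, gp130, JAK kinases and STAT3, which maintain self-renewal.

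Of 20177 genes counted, 11415 had enough reads to be tested, and 733 of them were called changed, meaning an adjusted p below 0.05 and a change of more than 2-fold (by the quasi-likelihood test of edgeR, with p-values adjusted after Benjamini and Hochberg, here and throughout). The calls split into 399 genes higher at 8 h, which is 3.50% of those tested, and 334 genes lower, which is 2.93%. A gene was tested where any of the 11 groups, later days and auxin included, averaged 10 or more reads, so some tested genes had few reads at 0 h and 8 h. Without the fold threshold, 1051 genes (9.21%) rose and 1037 (9.08%) fell, and these shares are the background for the gene lists below. Levels are given as CPM, the reads of a gene per 1000000 counted reads of its library. Fold changes are on the log2 scale, with the standard error (SE) from the fit, and are 8 h over 0 h. The fit also scales each library by a composition factor (TMM), which adds 0.07 to the log2 change relative to CPM. "Rose" and "fell" denote an adjusted p below 0.05.

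The induced genes were mostly quiet at 0 h, and the repressed genes were more often well expressed. The 399 genes called higher had a median level of 4.34 CPM at 0 h and 13.9 CPM at 8 h, and 24 of them had no read in either 0 h library. Of these genes, 152 changed by more than 4-fold and 74 by more than 8-fold. The 334 genes called lower had a median level of 24.1 CPM at 0 h and 8.59 CPM at 8 h, against a median of 22.5 CPM at 0 h over all tested genes. Among them, 65 changed by more than 4-fold, 23 by more than 8-fold, and 10 had no read at 8 h. Only 16 of the genes called higher stood at 100 CPM or more at 0 h, compared with 49 of those called lower. At 8 h the counts were 33 and 14.

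**Figure D1:**
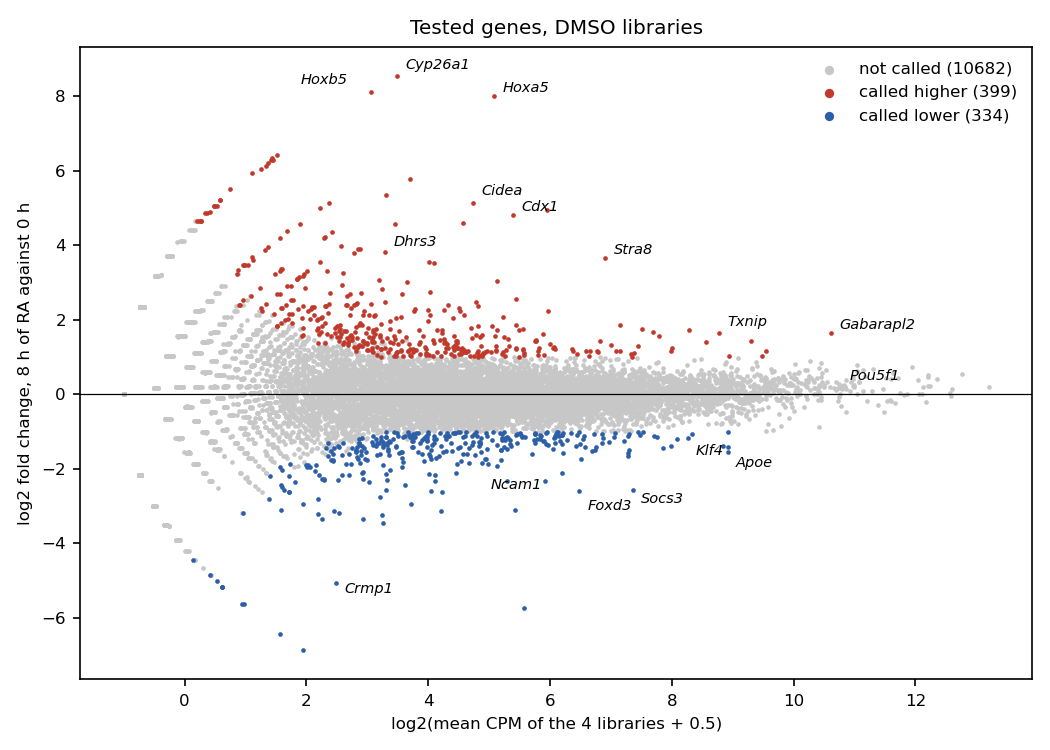
Log2 fold change (8 h over 0 h) of the 11415 tested genes, one point per gene, against log2 of the mean CPM of the 4 libraries plus 0.5. Red points are the 399 genes called higher, blue points the 334 called lower and grey points the rest, and the induced genes reach larger folds at lower levels.

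Counted reads came to 2232455 and 2543632 at 0 h and to 1914037 and 2382599 at 8 h. At this depth 1 read is worth about 0.4 to 0.5 CPM, so folds of genes near 0 rest on few reads. Where a group had no read, the fold is given as a lower bound that sets the group's pooled count to 3 reads, and where it had 1 to 3 reads a ratio of pooled counts is given with its exact 95% binomial interval. Bounds and intervals cover counting error only, since they pool the 2 libraries of a group and leave out the spread between them. The libraries also have no molecular identifiers, so duplicate copies of a molecule are not removed from the counts. Reads that map to more than 1 place made up 30.0% and 29.9% at 0 h and 32.5% and 33.1% at 8 h, and genes that drew most of their reads from them are named as such. When 1 of the 4 libraries was left out in turn, 179 of the 399 higher calls and 145 of the 334 lower calls were made in all 4 fits. Named genes that did not pass in some of these fits are marked, and a list's counts are given again, or the members concerned marked, where these fits moved them by more than 1.5 times.

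The retinoid pathway itself was led by enzymes that limit RA. Among 15 tested genes of retinoid synthesis, binding and breakdown, 5 rose and 1 fell. Cyp26a1 (chr19:37697798-37701536, mm10), which oxidises and clears RA, had no read at 0 h and stood at 21.9 and 21.0 CPM at 8 h, at least 34.1-fold higher (adjusted p = 9.3e-07). Its paralogue Cyp26b1 likewise had no read at 0 h and reached 4.70 and 4.2 CPM, at least 7.04-fold higher (adjusted p = 0.0033). Dhrs3, which reduces retinaldehyde back to retinol, went from 1.34 and 1.18 CPM to 14.6 and 20.1 CPM (3.82, SE 0.40, adjusted p = 1.0e-07). In each of these 3 genes, both 8 h libraries lay above both 0 h libraries, which by itself sets no gene apart, since it held for 25.9% of all tested genes, and the reverse for 34.6%.

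Stra6, the cell-surface retinol transporter, passed at low counts, with 0 and 0.786 CPM at 0 h and 2.09 and 2.94 CPM at 8 h, a ratio of 6.11 with an interval of 1.33 to 56.8 (adjusted p = 0.037). Its call did not hold without 0 h replicate 1 (adjusted p = 0.24), 8 h replicate 1 (0.066) or 8 h replicate 2 (0.22). Rdh11, a retinal reductase, was the member that fell, from 43.4 and 53.9 CPM to 32.4 and 32.3 CPM (-0.52, SE 0.18, adjusted p = 0.047), and it passed in only 1 of the 4 fits that left out a library, the one without 0 h replicate 1. The RA-binding protein gene Crabp1 was well expressed at both times, at 76.6 and 81.8 CPM and then 79.9 and 89.0 CPM, and did not pass (0.16, SE 0.16, adjusted p = 0.52). Crabp2 had 0 and 2.75 CPM and then 0.522 and 0.839 CPM, a ratio of 0.476 (interval 0.0795 to 2.09, adjusted p = 0.59).

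Among 17 tested retinoid receptors and cofactors, 3 rose and 1 fell, or 1 or 2 and 0 or 1 when 1 library was left out. Rarb, the RAR gene best known as an RA target, was near the detection limit, with 0.448 and 0 CPM at 0 h and 1.57 and 3.36 CPM at 8 h, a ratio of 12.2 with an interval of 1.78 to 526 (adjusted p = 0.020). The Rarb call did not hold without 0 h replicate 2 (adjusted p = 0.19) or 8 h replicate 2 (0.24). Rarg, a well-expressed RAR gene of ES cells, stood at 240 and 228 CPM and then 281 and 293 CPM (0.36, SE 0.11, adjusted p = 0.026), and its adjusted p ran from 0.074 to 0.19 over the 4 fits that left out a library. Rara stood at 34.0 and 40.9 CPM and then 42.8 and 42.0 CPM (0.24, SE 0.23, adjusted p = 0.51).

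Nrip1, a cofactor that binds liganded nuclear receptors and recruits repressors, was the strongest of the cofactors. It went from 10.3 and 8.26 CPM to 47.5 and 44.5 CPM (2.38, SE 0.21, adjusted p = 3.5e-09).

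Of these genes, Cyp26a1 and Rarb carry a direct repeat with 5 spacer bases (DR5), the element bound by RAR heterodimers, in the 250 bases before to 50 after the annotated start (RefSeq, GRCm38.p6). These 2 promoters are shown because they hold the repeat upstream of genes that went from 0 or 1 read to a measurable level. The search took 2 copies, in any combination, of the half-site AGGTCA, of its variant AGTTCA or of the variant GGTTCA, on either strand. In the windows below, written 5′ to 3′ in the direction of transcription, the capitals mark the repeat with its spacer. The Cyp26a1 window is chr19:37697558-37697857 on the plus strand, where the repeat reads on the opposite strand and lies 32 to 16 bases before the start. The Rarb window is chr14:16575427-16575726 on the minus strand, with the repeat on the transcribed gene's strand 53 to 37 bases before the start.
Cyp26a1: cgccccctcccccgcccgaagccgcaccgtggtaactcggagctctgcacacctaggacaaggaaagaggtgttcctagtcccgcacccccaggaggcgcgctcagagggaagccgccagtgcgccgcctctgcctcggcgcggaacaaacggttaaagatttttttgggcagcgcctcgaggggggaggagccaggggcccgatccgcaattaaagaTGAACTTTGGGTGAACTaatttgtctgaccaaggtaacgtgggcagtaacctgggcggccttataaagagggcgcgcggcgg
Rarb: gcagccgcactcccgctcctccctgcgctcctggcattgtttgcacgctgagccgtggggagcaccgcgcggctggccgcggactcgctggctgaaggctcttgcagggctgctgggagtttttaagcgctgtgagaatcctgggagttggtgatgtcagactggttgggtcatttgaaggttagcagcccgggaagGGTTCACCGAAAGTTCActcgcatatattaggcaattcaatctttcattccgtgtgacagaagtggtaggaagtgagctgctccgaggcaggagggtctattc

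Such a DR5 was present in the windows of 20 of 27025 genes with a promoter entry, or 0.074%, and of 4 tested genes. The other two were Blvrb (0.29, adjusted p = 0.39) and Gm4631 (0.59, adjusted p = 0.0011), which did not move by 2-fold. Repeats spaced by 1 base were found in 32 genes and repeats spaced by 2 bases in 66, and 118 genes (0.437%) held at least 1 of the 3 kinds. Promoter entries were matched for 307 of the 399 genes called higher and 260 of the 334 called lower. These shares, 76.9% and 77.8%, are too low for a comparison of motif shares between induced and repressed genes. A match describes the letters in the window and is not evidence of binding.

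**Figure D2:**
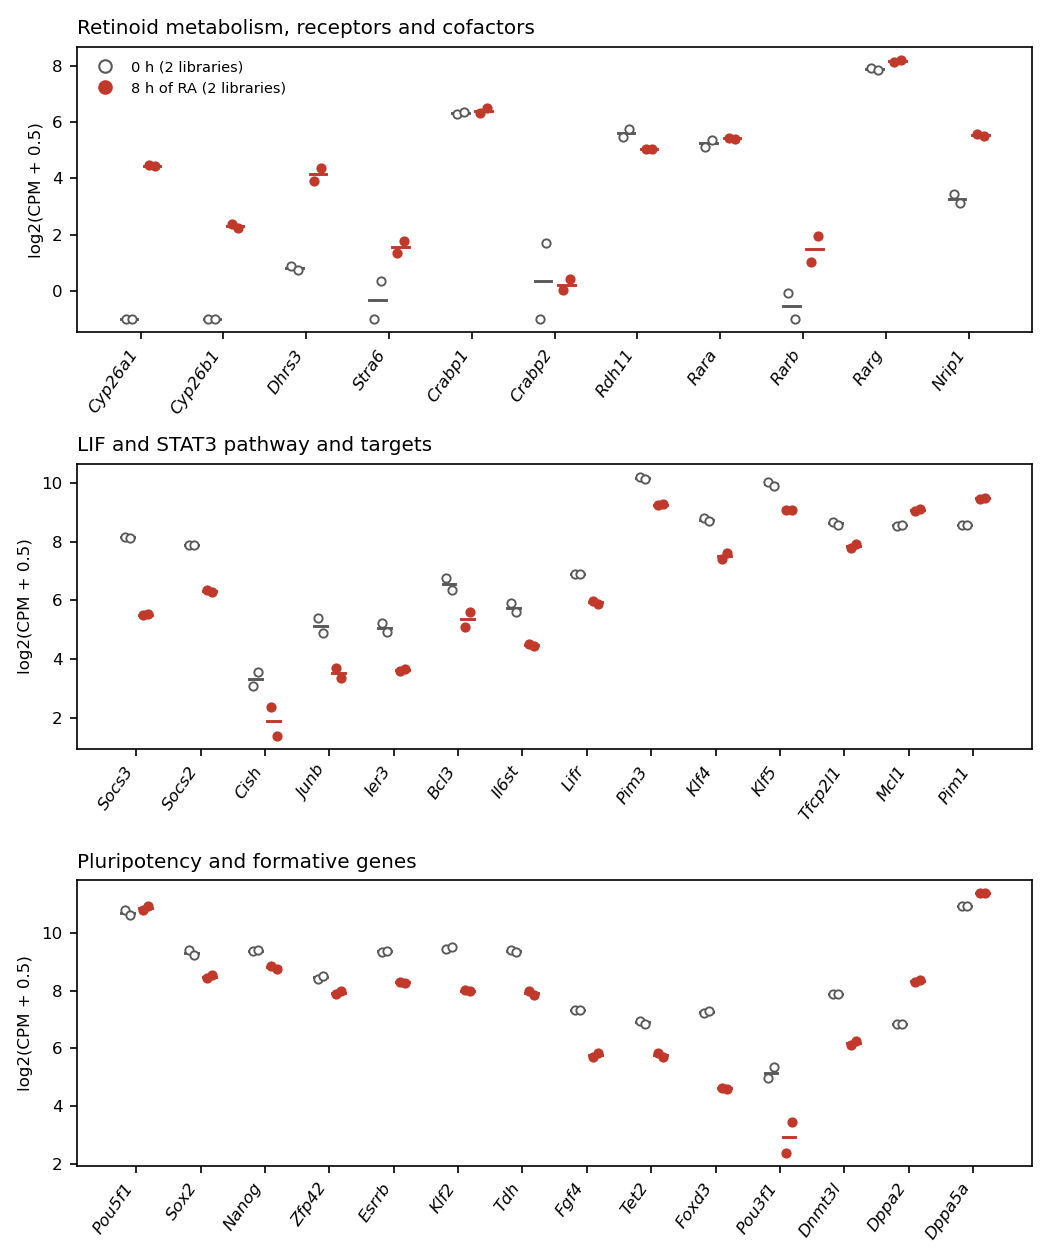
Log2 of CPM plus 0.5 in each of the 4 libraries, for retinoid genes (top), LIF and STAT3 genes (middle) and pluripotency and formative genes (bottom). Open points are the 0 h libraries, red points the 8 h libraries and bars the mean of the log2 values, and Cyp26a1 has no read at 0 h while Socs3 lies near 280 CPM at 0 h and near 45 CPM at 8 h.

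The Hoxa and Hoxb clusters, which encode homeodomain factors that specify position along the body axis, were switched on from almost no reads. Hoxa2 to Hoxa7 span chr6:52162417-52221854 and Hoxb13 to Hoxb1 chr11:96194316-96368256 in mm10, and the counted reads lie in the annotated 3′ UTRs. In Hoxa, 6 of 8 tested genes rose, and in Hoxb 7 of 10, all by more than 2-fold, against 9.21% of all tested genes at any fold. The median log2 change was 4.33 in Hoxa and 4.48 in Hoxb, or 3.70 and 3.58 with genes that had no read at 0 h set to their bounds. Hoxc and Hoxd cannot be set against them, because none of their 7 and 1 tested genes averaged 10 reads at 0 h or 8 h. One Hoxc gene fell and 0 rose, or 1 rose and 0 fell without 8 h replicate 1, and the Hoxd gene did not pass.

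Hoxa5 had 0.448 and 0 CPM at 0 h and 69.0 and 63.8 CPM at 8 h, a ratio of 316 with an interval of 56.2 to 12512 (adjusted p = 1.6e-13). Hoxa3 rose from 0.448 and 0.393 CPM to 18.3 and 18.5 CPM, a ratio of 43.9 with an interval of 11.8 to 369 (adjusted p = 3.5e-09). In both genes the groups were far apart. Hoxa4 (3.89, SE 0.53) and Hoxa7 (4.57, SE 0.48) rose to between 11.8 and 21.0 CPM. Without 0 h replicate 1 their log2 changes were 3.02 and 4.10. Without 0 h replicate 2 they were 7.76 and 5.38, and Hoxa4 then had no read at 0 h. Hoxa2 passed with 0 CPM at 0 h and only 0.522 and 2.10 CPM at 8 h (adjusted p = 0.039). Among the fits that left out a library, the Hoxa2 call was made only without 8 h replicate 1. Hoxa6 and Hoxa13 had no read in the 4 libraries.

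In the Hoxb cluster, Hoxb4 went from 0.896 and 0 CPM to 21.9 and 27.3 CPM, a ratio of 59.5 (interval 16.1 to 497, adjusted p = 5.4e-09). Hoxb5 had no read at 0 h and stood at 14.6 and 16.8 CPM at 8 h, at least 25.2-fold higher (adjusted p = 3.8e-08). Hoxb1, the hindbrain gene whose RA response elements are well known, went from 0 and 0.393 CPM to 7.84 and 4.62 CPM, a ratio of 28.9 (interval 4.75 to 1185, adjusted p = 1.3e-05). These 3 genes had at most 2 reads at 0 h in both libraries together. Hoxb3 rose at least 7.78-fold from no read, and Hoxb7 went from 0.448 and 0.786 CPM to 10.4 and 10.1 CPM, a ratio of 16.3 (interval 5.23 to 82.1). Hoxb9 was already expressed at 0 h, at 5.82 and 4.72 CPM, and stood at 4.70 and 7.14 CPM at 8 h (0.27, SE 0.40, adjusted p = 0.70).

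Hoxb2, at a ratio of 25.6 (interval 4.15 to 1053, adjusted p = 0.0052), did not pass without 0 h replicate 1 (0.057) or 8 h replicate 2 (0.067). Hoxb13, at the 5′ end of the cluster, went from 1.34 and 0 CPM to 6.79 and 3.36 CPM, a ratio of 7.78 (interval 2.32 to 40.7, adjusted p = 0.011), and did not pass without 0 h replicate 2 (0.16) or 8 h replicate 1 (0.13). The member that fell, Hoxc13, went from 3.58 and 4.32 CPM to 1.04 and 0.839 CPM (-1.96, SE 0.66, adjusted p = 0.039), and its adjusted p ran from 0.076 to 0.21 when 1 library was left out.

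**Figure D3:**
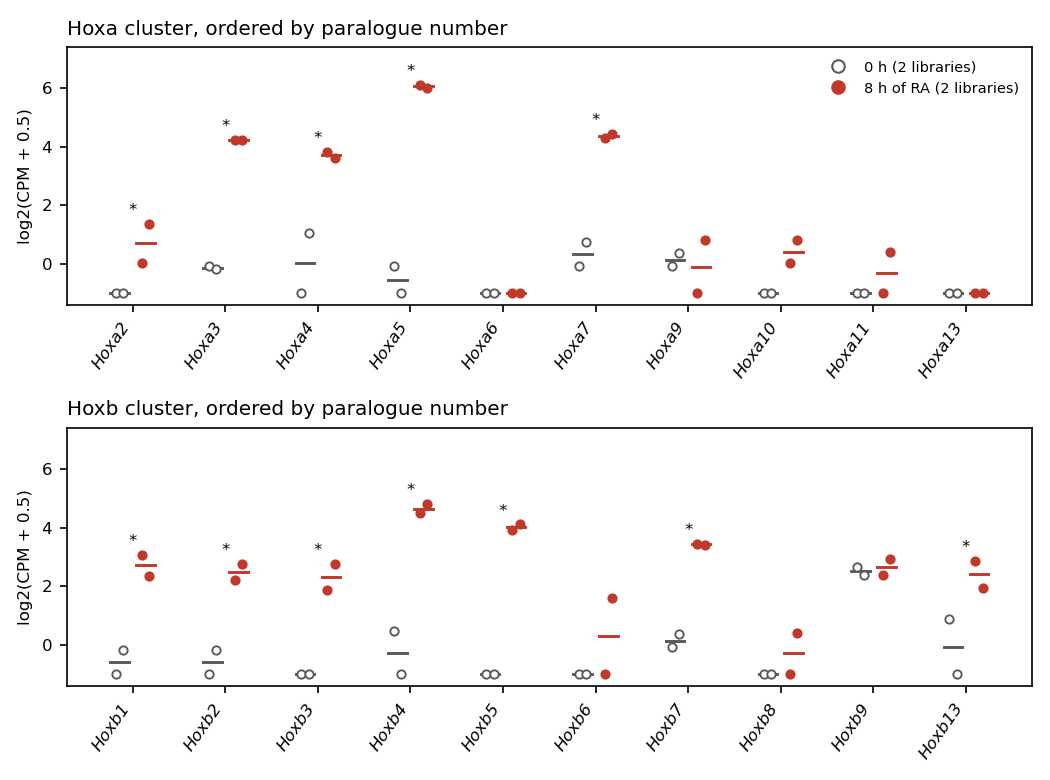
Log2 of CPM plus 0.5 of Hoxa (top) and Hoxb (bottom) genes, in order of paralogue number, in the 2 libraries at 0 h (open points) and the 2 at 8 h (red points), with bars at the mean of the log2 values. Asterisks mark plotted genes that rose, and Hoxb9 lies at the same level at both times.

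Among 12 tested Hox cofactors and Cdx factors, 3 rose and 1 fell. Cdx1, a caudal-type homeodomain factor that regulates Hox genes in the posterior embryo, went from 2.69 and 3.15 CPM to 88.3 and 71.8 CPM (4.80, SE 0.28, adjusted p = 2.0e-12). Meis2, a homeodomain partner of Hox and Pbx proteins, went from 0.896 and 3.93 CPM to 16.2 and 10.5 CPM (2.42, SE 0.38, adjusted p = 4.3e-05). Its log2 change was 1.79 without 0 h replicate 1 and 3.84 without 0 h replicate 2. Pbx2 rose from 87.8 and 77.8 CPM to 157 and 156 CPM (0.99, SE 0.15, adjusted p = 2.1e-05). Gbx2, a homeodomain factor of the hindbrain boundary that also acts in LIF-driven self-renewal, fell from 53.8 and 55.8 CPM to 16.7 and 11.3 CPM (-1.91, SE 0.24, adjusted p = 2.1e-06). Meis1, with 0.896 and 0.393 CPM and then 1.04 and 2.52 CPM, did not pass, at a ratio of 2.96 (interval 0.712 to 17.3, adjusted p = 0.21).

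Of 28 tested homeobox and forkhead genes outside Hox, 6 rose and 1 fell, and without 0 h replicate 1 or 8 h replicate 2 the number that rose was 3. When 1 library was left out, 0 or 1 fell. Foxp1, a forkhead repressor with an ES-cell splice form, rose from 89.1 and 83.7 CPM to 278 and 274 CPM (1.74, SE 0.11, adjusted p = 4.2e-12). The large zinc-finger homeobox gene Zfhx3 rose from 13.9 and 11.4 CPM to 36.6 and 49.1 CPM (1.85, SE 0.23, adjusted p = 1.4e-06). Tshz1, a zinc-finger homeobox gene of the trunk, rose from 0 and 0.393 CPM to 7.84 and 8.39 CPM, a ratio of 38.9 (interval 6.54 to 1580, adjusted p = 2.3e-05). Dlx3 (1.77, adjusted p = 0.021), Hhex (1.15, adjusted p = 0.025) and Foxn4 (1.17) had less support: over the fits that left out a library their adjusted p ran up to 0.14, 0.31 and 0.093, and they passed in 0, 1 and 1 of the 4.

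Of 21 tested germline and 2-cell-like genes, 4 rose and 1 fell. Stra8, the RA-induced gate-keeper of meiosis, went from 18.4 and 18.1 CPM to 220 and 222 CPM (3.66, SE 0.15, adjusted p = 1.9e-15), the smallest adjusted p among the genes named here. Dmrt1, a DM-domain factor of male germ cells, rose from 69.4 and 58.6 CPM to 214 and 227 CPM (1.86, SE 0.13, adjusted p = 1.1e-10). Dazl, an RNA-binding protein of germ cells, rose from 4.93 and 13 CPM to 22.5 and 25.2 CPM (1.45, SE 0.28, adjusted p = 0.00052). Its log2 change was 0.95 without 0 h replicate 1 and 2.33 without 0 h replicate 2. The fourth, Tex19.1, rose by 0.50. Rhox5 fell by 0.34, with an adjusted p of 0.092 to 0.23 when 1 library was left out.

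Beyond these lists, the genes with the largest fold changes were mostly silent at 0 h and of varied function. Aurkc, a kinase of meiotic chromosome segregation, went from 4.03 and 3.93 CPM to 114 and 124 CPM (4.95, SE 0.24, adjusted p = 4.6e-14), with 46.3% of its reads multimapping. Cidea, a lipid-droplet protein, went from 2.69 and 0.393 CPM to 47.5 and 54.1 CPM (5.13, SE 0.33, adjusted p = 2.0e-11). Its log2 change was 6.89 without 0 h replicate 1 and 4.28 without 0 h replicate 2. Nt5e, the ectonucleotidase CD73, went from 2.24 and 1.57 CPM to 39.7 and 49.9 CPM (4.61, SE 0.36, adjusted p = 7.5e-10). In all 3, both 8 h libraries lay far above both 0 h libraries.

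Usp29, an imprinted gene paternally expressed in mouse, went from 0.448 and 0 CPM to 11.5 and 6.72 CPM, a ratio of 42.2 with an interval of 7.14 to 1712. Genes with no read at 0 h included Gadd45g, a stress-inducible growth-arrest gene (at least 7.41-fold higher), Mall, a membrane proteolipid (7.04-fold), Fbp1, the gluconeogenic fructose-bisphosphatase (6.30-fold), Adgra2, an adhesion receptor (5.93-fold), and Fgfr2, an FGF receptor (5.56-fold). Fgfr2 did not pass without 8 h replicate 2 (adjusted p = 0.10). The bounds of Edn1, Prss46, Csn3 and Olfml2b ran from 2.96- to 4.08-fold, and each of these calls was made in 1 of the 4 fits that left out a library, with adjusted p of up to 0.37.

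Ranked by the CPM gained, the leading genes among those called higher were of a different kind, being already well expressed. Txnip, a regulator of glucose uptake and redox state, rose from 217 and 221 CPM to 726 and 595 CPM (1.66, SE 0.15, adjusted p = 1.2e-08). Camk2n1, an inhibitor of the kinase CaMKII, rose from 115 and 89.2 CPM to 317 and 304 CPM (1.67, SE 0.15), and Dusp9, an ERK phosphatase of ES cells, from 206 and 221 CPM to 533 and 544 CPM (1.4, SE 0.12). Hspa5, the chaperone BiP, rose from 482 and 493 CPM to 958 and 931 CPM (1.02, SE 0.10). In each, the 2 groups were well separated.

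Several abundant induced genes drew most of their reads from multimapping sequence. Gabarapl2, an autophagy protein with a level of 752 and 819 CPM at 0 h and 2450 and 2246 CPM at 8 h (1.65, SE 0.09), had 85.9% such reads. Gpx4, a lipid peroxidase (1.44, SE 0.11), had 98.3% and Trip4 (1.73, SE 0.14) 89.3%, and the calls of both were lost when only uniquely mapped reads were counted. Dppa2 (1.57, SE 0.12), which binds promoters in ES cells, had 51.5%. For these genes a share of the reads may belong to near-identical copies.

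The integrated stress response, the programme that follows phosphorylation of eIF2α, was split. Of 19 tested members 5 rose and 4 fell. Chac1, a glutathione-degrading enzyme, rose from 11.6 and 14.2 CPM to 72.6 and 73.9 CPM (2.56, SE 0.18, adjusted p = 7.5e-11), and Ddit3, the factor CHOP, from 10.8 and 4.72 CPM to 37.6 and 35.3 CPM (2.32, SE 0.28, adjusted p = 9.6e-07). Atf3 went from no read to 4.18 and 4.2 CPM (at least 6.67-fold higher), Ddit4, an inhibitor of mTORC1, rose by 1.17 and Trib3, a pseudokinase, by 0.94. These 5 passed in all 4 fits that left out a library. The members that fell were the amino acid transporter gene Slc7a5 (-1.21), the proline synthesis gene Aldh18a1 (-1.04), the mitochondrial carboxykinase gene Pck2 (-0.85) and the folate enzyme gene Mthfd2 (-0.45). Of these, only Mthfd2 passed in all 4 such fits. The adjusted p of Aldh18a1 reached 0.13 and that of Pck2 0.069, and the adjusted p of Slc7a5 was 0.054 without 0 h replicate 1 and 0.086 without 8 h replicate 2.

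On the repressed side, the feedback regulators and targets of LIF signalling were prominent. Of 24 tested genes of the LIF and STAT3 pathway 14 fell, 9 of them by more than 2-fold, and 3 rose, with a median log2 change of -0.76, where 9.08% of all tested genes fell. Socs3 (chr11:117966079-117970047), the main feedback inhibitor of gp130 and a direct STAT3 target, fell from 288 and 276 CPM to 44.4 and 46.2 CPM (-2.57, SE 0.15, adjusted p = 2.6e-12). Socs2 fell from 236 and 234 CPM to 81.0 and 77.6 CPM (-1.5, SE 0.13, adjusted p = 4.0e-09). The receptor subunits fell as well, Il6st (gp130) from 59.1 and 48.4 CPM to 22.5 and 21.4 CPM (-1.22, SE 0.19) and Lifr from 118 and 118 CPM to 63.2 and 58.3 CPM (-0.89, SE 0.15). For these 4 genes both 8 h libraries lay below both 0 h libraries, as for 34.6% of all tested genes.

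Among the transcription factors of this list, Klf4, a naive pluripotency factor, fell from 443 and 419 CPM to 169 and 194 CPM (-1.17, SE 0.12, adjusted p = 7.6e-08), with 50.1% of its reads multimapping. Klf5 (-0.80, SE 0.11), Tfcp2l1 (-0.72, SE 0.11), the AP-1 gene Junb (-1.61, SE 0.28) and Bcl3 (-1.11, SE 0.22) fell too, as did Ier3 (-1.41, SE 0.27) and the kinase gene Pim3 (-0.85, SE 0.09). Cish (-1.5, SE 0.46, adjusted p = 0.022) did not pass without 0 h replicate 2 (0.19) or 8 h replicate 2 (0.28), and Icam1 (-0.61, adjusted p = 0.026) ran from 0.029 to 0.28 when 1 library was left out. The members that rose were Gadd45g, the survival gene Mcl1 (0.59, SE 0.09) and the kinase gene Pim1, which went from 379 and 382 CPM to 702 and 720 CPM (0.97, SE 0.11, adjusted p = 2.2e-07, with 67.4% multimapping reads). Stat3 itself had 1 read over the 4 libraries, in an annotated interval of 38 bases, and was not tested.

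Many naive pluripotency genes fell, whereas the core factor Pou5f1 did not pass. Among 31 tested core and naive pluripotency genes, 18 fell, 6 of them by more than 2-fold, and 2 rose, with a median log2 change of -0.50. Fgf4, the growth factor that ES cells secrete to signal to themselves, fell from 160 and 160 CPM to 51.2 and 56.2 CPM (-1.5, SE 0.15, adjusted p = 2.8e-08). Klf2 fell from 692 and 727 CPM to 260 and 252 CPM (-1.4, SE 0.10, adjusted p = 2.4e-10), and Tdh, threonine dehydrogenase, on which mouse ES cells depend, from 680 and 652 CPM to 256 and 233 CPM (-1.38, SE 0.11, adjusted p = 1.9e-09). Esrrb, an orphan nuclear receptor of the naive network, fell from 649 and 673 CPM to 319 and 305 CPM (-1.01, SE 0.10, adjusted p = 5.9e-08). Tet2, a 5-methylcytosine oxidase, fell by 1.08.

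Sox2, which partners OCT4, fell from 683 and 603 CPM to 345 and 374 CPM (-0.77, SE 0.09, adjusted p = 1.3e-06). Nanog stood at 659 and 678 CPM and then at 465 and 435 CPM (-0.50, SE 0.14, adjusted p = 0.011), without overlap, but its adjusted p ran from 0.051 to 0.11 when 1 library was left out. Zfp42 (REX1) was similar (-0.46, SE 0.14, adjusted p = 0.023, 86.0% multimapping reads) and ran from 0.068 to 0.16 in those fits. Pou5f1 (OCT4) did not pass, with 1779 and 1566 CPM at 0 h and 1770.1 and 1952 CPM at 8 h (0.22, SE 0.11, adjusted p = 0.17), and 99.9% of its reads were multimapping. The 2 members that rose were Dppa2 and Dppa5a (0.50, SE 0.09, 100% multimapping).

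The genes of the formative or early epiblast state, into which ES cells pass when they leave the naive state, also fell more than they rose. Of 21 tested members, 8 fell and 3 rose. Without 8 h replicate 2 the counts were 4 and 1, and without 0 h replicate 2 they were 6 and 1. Foxd3, a forkhead factor of the epiblast and neural crest, dropped from 150 and 156 CPM to 24.0 and 23.9 CPM (-2.60, SE 0.20, adjusted p = 2.9e-10). Pou3f1 (OCT6) fell from 30.9 and 40.1 CPM to 4.70 and 10.5 CPM (-2.11, SE 0.40, adjusted p = 0.00039), and Dnmt3l, a cofactor of de novo DNA methylation, from 239 and 238 CPM to 68.4 and 76.4 CPM (-1.65, SE 0.15, adjusted p = 1.6e-08). Otx2 went from 21.5 and 14.2 CPM to 8.88 and 10.5 CPM and did not pass (-0.79, SE 0.31, adjusted p = 0.075), and Fgf5, with 1 read at each time, was not tested. Fgf15 (-1.42, adjusted p = 0.026) ran from 0.041 to 0.27 when 1 library was left out. Zic5 was the one member that rose by more than 2-fold, from 67.2 and 55.8 CPM to 130 and 133 CPM (1.17, SE 0.16, 54.0% multimapping).

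Other regulators of ES cells changed as well. In the Myc and Max network 3 of 11 tested genes fell and 0 rose: Mycn from 69.4 and 60.5 CPM to 15.2 and 10.1 CPM (-2.31, SE 0.23, adjusted p = 4.8e-08), and the MAX partners Mnt (-1.29, SE 0.25) and Mga (-1.07, SE 0.17). Among 13 DNA methylation genes, 6 fell and 1 rose, which passed in none of the fits that left out a library. These included Dnmt3l and Tet2, Tet1 from 206 and 166 CPM to 114 and 106 CPM (-0.69, SE 0.14) and the imprint protector Zfp57 (-0.80, SE 0.20), which did not pass without 0 h replicate 1 (adjusted p = 0.19) or 8 h replicate 2 (0.076). Of 23 genes of FGF signalling and ERK feedback, 4 rose, or 2 without 8 h replicate 2, and 7 fell. Dusp6, an ERK phosphatase and a common readout of ERK activity, rose from 172 and 150 CPM to 352 and 334 CPM (1.16, SE 0.19), and Phlda1 rose by 1.25 (SE 0.14), whereas the ERK inhibitor Spry2 fell from 86.5 and 60.5 CPM to 35 and 31.5 CPM (-1.07, SE 0.22).

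Of the 20 genes called lower with the largest falls and no overlap between times, 9 had no read at 8 h, from 6 to 34 reads at 0 h in all, and none of these 9 passed in all 4 fits that left out a library. Ahnak2 was one, at 3.14 and 2.75 CPM at 0 h (at least 4.2-fold lower, adjusted p = 0.0083, or 0.053 without 8 h replicate 1 and 0.083 without 8 h replicate 2). Cds1, a phospholipid synthesis gene, was another, at 1.79 and 3.93 CPM (at least 4.2-fold lower, adjusted p = 0.0081, or 0.052 to 0.087 except without 0 h replicate 1). Among the genes with reads at both times, Trh, the thyrotropin-releasing hormone precursor, fell from 35.8 and 29.5 CPM to 3.66 and 3.36 CPM (-3.13, SE 0.36, adjusted p = 3.9e-07). Gap43, a growth-cone protein, fell from 17.5 and 8.65 CPM to 1.04 and 1.26 CPM (-3.33, SE 0.47, adjusted p = 1.1e-05). No 8 h library of these genes reached a 0 h library.

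Crmp1, a cytoskeletal protein of growing axons, went from 8.96 and 11 CPM to 0 and 0.420 CPM, a ratio of 0.0232 (interval 0.0006 to 0.135). Bcl11a, a zinc-finger repressor, stood at a ratio of 0.0878 (interval 0.0173 to 0.277). Cd24a (-3.46, SE 0.41, 65.1% multimapping), the glutamate receptor gene Grm4 (-3.23, SE 0.51), the stress gene Ndrg1 (-2.93, SE 0.38) and the adhesion molecule gene Ncam1, of the neural list, fell as well, Ncam1 from 129 and 108 CPM to 27.2 and 25.6 CPM (-2.10, SE 0.15, adjusted p = 1.2e-10). Olfr826, an olfactory receptor gene, had its reads in 1 library, 13 CPM in 0 h replicate 2 against 0.448 CPM in replicate 1 and none at 8 h. Without that library its adjusted p was 0.52.

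Among the 334 genes called lower, the largest loss of CPM was in Apoe, a lipid carrier and a member of the primitive endoderm list, from 734 and 727 CPM to 242 and 232 CPM (-1.56, SE 0.14, adjusted p = 8.7e-09), followed by Klf2, Tdh, Esrrb and Klf4. Also among the 10 largest losses of called genes was the chromatin factor gene Arid5b, from 387 and 354 CPM to 141 and 133 CPM (-1.37, SE 0.11). The taurine transporter gene Slc6a6 fell from 409 and 355 CPM to 168 and 153 CPM (-1.19, SE 0.17), and Glul, glutamine synthetase, from 428 and 457 CPM to 214 and 191 CPM (-1.06, SE 0.10). Ifitm1, another of these 10, fell by 1.44, with 75.1% multimapping reads. Among the 334 genes called lower, 3 had libraries that overlapped or tied between times: Nap1l3, Pik3c2g and Zc3h12a. In each the high value was that of 0 h replicate 2: Nap1l3 had 1.79 and 183 CPM at 0 h and 0 and 2.94 CPM at 8 h (97.5% multimapping), Pik3c2g had 0 and 9.83 CPM and then none, and Zc3h12a had 15.7 and 92.0 CPM and then 19.3 and 17.6 CPM. Without that library the adjusted p of Nap1l3 was 0.996 and that of Zc3h12a 0.63, and Pik3c2g had no read left.

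The other signalling pathways are read against the same background, 9.21% higher and 9.08% lower. Of 30 tested TGF-β, Nodal and BMP genes 5 rose and 7 fell. When 1 library was left out, 3 or 4 rose and 1 to 4 fell, the fewest without 8 h replicate 2. Lefty1, a secreted Nodal inhibitor, rose from 6.72 and 6.68 CPM to 28.7 and 32.7 CPM (2.26, SE 0.24, adjusted p = 1.3e-07) and Smad7, an inhibitory SMAD, fell from 47.0 and 44.4 CPM to 22.5 and 26.0 CPM (-0.84, SE 0.18). Id3, a BMP target, rose from 65.8 and 69.6 CPM to 135 and 128 CPM (1.02, SE 0.16). Of 26 Wnt genes 1 rose and 5 fell, a count that became 3 without 0 h replicate 2 and 2 without 8 h replicate 2, and the number that rose was 0 except without 8 h replicate 1. Those that fell included the receptor gene Fzd5 from 104 and 98.7 CPM to 40.2 and 41.1 CPM (-1.25, SE 0.21) and the secreted antagonist gene Sfrp1 from 166 and 162 CPM to 76.8 and 62.5 CPM (-1.17, SE 0.13).

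Of 35 genes of axon guidance, ephrin signalling and adhesion, 5 rose and 5 fell, or 2 to 4 of each when 1 library was left out. The semaphorin receptor gene Nrp2 rose by 2.19 (SE 0.47) and the ephrin gene Efnb1 by 1.90 (SE 0.36), whereas the ephrin receptor gene Epha4 fell from 156 and 158 CPM to 70.01 and 81.8 CPM (-0.98, SE 0.13). Epha2 (1.08, adjusted p = 0.048) ran from 0.075 to 0.28 when 1 library was left out. Of 8 Hedgehog genes, the pathway inhibitor gene Hhip rose from 0 and 1.18 CPM to 8.88 and 3.36 CPM, a ratio of 9.26 (interval 2.83 to 47.9, adjusted p = 0.0027, or 0.087 without 8 h replicate 1). Gli2, a transcription factor of the pathway, fell (-0.68, adjusted p = 0.040), but its adjusted p ran from 0.097 to 0.24 when 1 library was left out. Of 13 Notch genes, 1 fell, Rbpj (-0.30, adjusted p of 0.092 to 0.20 when 1 library was left out), and 0 rose. Smaller lists of stress and growth genes gave 3 higher and 0 lower of 14 heat shock genes, 2 and 3 of 19 hypoxia genes, 1 and 3 of 17 immediate early genes and 2 and 1 of 15 p53 targets. When 1 library was left out, the hypoxia genes that rose numbered 0 or 1, the immediate early genes that fell 1 or 2, no p53 target fell and 1 rose without 0 h replicate 1.

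**Figure D4:**
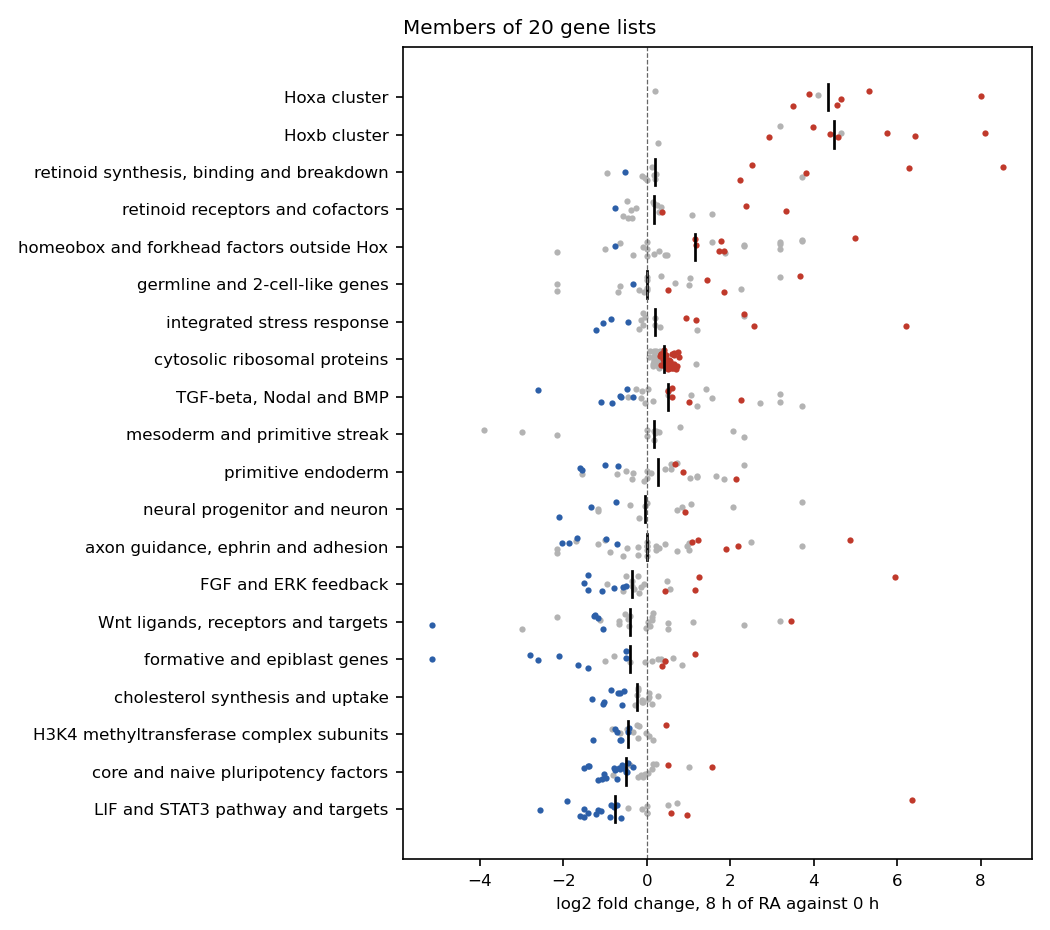
Log2 fold change (8 h over 0 h) of the tested members of 20 gene lists, one point per gene, with red points for genes that rose, blue for genes that fell and grey for genes that did not pass. The vertical bar is the list median, which lies at 4.33 for Hoxa and at -0.76 for the LIF and STAT3 list.

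Metabolic and housekeeping lists differed in how widely their members moved. Of 20 tested genes of cholesterol synthesis and uptake, 8 fell and 0 rose, or 4 without 8 h replicate 2 and 5 without 8 h replicate 1. Those that fell included the sterol synthesis genes Sqle, from 103 and 99.5 CPM to 39.2 and 53.7 CPM (-1.04, SE 0.15, adjusted p = 1.4e-05), Msmo1, from 184 and 178 CPM to 94.0 and 76.4 CPM (-1.03, SE 0.12), and Hmgcs1 (-0.59, SE 0.10). Among 57 cytosolic ribosomal protein genes, 35 rose and 0 fell, but none by 2-fold, and the median log2 change was 0.42 (30 and 0.35 without the composition scaling). The count was 16 without 0 h replicate 2 and 15 without 8 h replicate 2, and 18 of 43 when only uniquely mapped reads were counted. Multimapping reads dominate this list. Only 4 tested members had under 10% of them, and 2 of these rose, Rps3 (0.72, SE 0.13) and Rpl8 (0.40, SE 0.11). Rpl8 did not pass without 0 h replicate 2 (adjusted p = 0.19) or 8 h replicate 2 (0.20).

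The H3K4 methyltransferase complexes are the subject of the series. Of 18 tested subunits 7 fell and 1 rose, and in the fits that left out a library the number that rose was 0 except without 8 h replicate 1. Setd1b, a catalytic subunit, fell from 180 and 178 CPM to 74.7 and 66.3 CPM (-1.28, SE 0.14, adjusted p = 1.7e-07), the one change beyond 2-fold, and Kmt2a (MLL1) fell from 90.9 and 80.6 CPM to 51.2 and 52.9 CPM (-0.65, SE 0.15). Dpy30, the tagged gene, did not pass, with 107 and 118 CPM at 0 h and 83.1 and 100.3 CPM at 8 h (-0.22, SE 0.14, adjusted p = 0.29), and its degron acts on the protein, which these counts do not measure. Of 29 Polycomb genes, 4 rose and 7 fell, with 1 change beyond 2-fold. Without 0 h replicate 1 no Polycomb gene rose, with each other library left out 1 or 2 did, and 3 fell without 8 h replicate 2. Of 25 cell cycle regulators 4 rose and 4 fell, but none fell without 0 h replicate 2, 1 without 8 h replicate 1 and 2 without 8 h replicate 2, and 2 or 3 rose in these fits. The list includes Cdk1 (0.69, SE 0.11), the CDK inhibitor gene Cdkn1b (0.51, SE 0.11) and Plk1 (-0.51, SE 0.12), and Plk1 did not pass without 0 h replicate 2 (adjusted p = 0.058) or 8 h replicate 2 (0.090).

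Markers of differentiated lineages were mostly too low at 0 h and 8 h to be compared. Of the tested members, only 2 of 13 mesoderm and primitive streak genes, 7 of 15 neural genes, 14 of 26 primitive endoderm genes, 8 of 20 trophectoderm genes and 3 of 11 fibroblast genes averaged 10 reads in either group. None of the 13 mesoderm and primitive streak genes passed, and Brachyury (gene symbol T) had no read except for 1.04 CPM in 8 h replicate 1. In the neural list, 1 of 15 rose, the RNA-binding protein gene Elavl3 (0.91, SE 0.17), and 3 fell: Ncam1, the neuronal tubulin gene Tubb3 from 90.5 and 85.3 CPM to 42.3 and 25.6 CPM (-1.33, SE 0.21) and Stmn2 (-0.75, SE 0.16). Sox1, which marks neural progenitors, stood at 22.8 and 15.7 CPM and then 21.4 and 14.3 CPM (-0.05, SE 0.29, adjusted p = 0.94), with overlapping libraries, and Pax6, at 1 to 3 reads in a group, was not tested.

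Of 26 primitive endoderm genes, 3 rose and 4 fell, or 1 and 2 without 8 h replicate 2. Gata6, the factor that starts this lineage, rose from 2.24 and 3.93 CPM to 14.6 and 12.2 CPM (2.13, SE 0.44, adjusted p = 0.0010). Sox17, at 0.448 and 0.786 CPM and then 1.04 and 3.36 CPM, did not pass, at a ratio of 3.71 (interval 0.954 to 21.0, adjusted p = 0.098), and the basement membrane gene Lama1 fell from 22.4 and 22.0 CPM to 4.70 and 8.81 CPM (-1.60, SE 0.32). Of 20 trophectoderm and simple epithelial genes, 0 rose and 2 fell, Krt8 (-1.0) and Epcam (-0.91), which without 8 h replicate 2 had adjusted p of 0.096 and 0.068.

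Of 11 tested fibroblast markers, Pdgfrb rose from 1.79 and 1.57 CPM to 7.84 and 13 CPM (2.69, SE 0.48), and Thy1 (-1.85, SE 0.32) and Vim (-1.06, SE 0.16) fell. The defining fibroblast collagen gene Col3a1, and Dcn, had no read in any of the 4 libraries. Of 12 ES cell markers 8 fell and 1 rose, or 3 to 6 fell when 1 library was left out, with 3 without 8 h replicate 2. Their summed level was 8680 and 8352 CPM at 0 h and 7803 and 7974 CPM at 8 h. In bulk libraries, fewer cells expressing a gene and less of its RNA per cell cannot be told apart.

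The same cells were also sampled at later days of RA treatment, which places the 8 h values in time. These comparisons share the 0 h libraries, so only levels are given. Of the 399 genes called higher at 8 h, 372 still had both day 1 libraries above both 0 h libraries, 348 at day 2 and 300 at day 4, where 41.2%, 42.7% and 48.5% of all tested genes did. Of the same 399, 96 lay below both 8 h libraries at day 1, 146 at day 2 and 178 at day 4. Over all tested genes these shares were 28.8%, 27.3% and 28.4%. Above both 8 h libraries lay 197, 164 and 155 of the 399, against 41%, 42.8% and 51.2% of all tested genes. Of the 334 called lower, 271 remained below both 0 h libraries at day 1, 252 at day 2 and 196 at day 4, where 34.9%, 32.1% and 30.9% of all tested genes did. Of the same 334, 129 lay above both 8 h libraries at day 1, 175 at day 2 and 219 at day 4. Over all tested genes these shares were 41%, 42.8% and 51.2%. Below both 8 h libraries lay 109, 82 and 53 of the 334, against 28.8%, 27.3% and 28.4% of all tested genes. The calls used the 0 h and 8 h libraries, so no test accompanies these counts.

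The induced genes took different courses after 8 h. Cyp26a1, at 21.9 and 21.0 CPM at 8 h, stood at 53.7 and 51.2 CPM at day 1, 90.1 and 103 CPM at day 2 and 132 and 106 CPM at day 4. Hoxa5 reached 251 and 260 CPM at day 1 and 478 and 511 CPM at day 2, and Hoxb1, at 7.84 and 4.62 CPM at 8 h, reached 212 and 203 CPM at day 2. Rarb, barely detected at 8 h, stood at 17.4 and 13.2 CPM at day 1 and at 55.9 and 47.6 CPM at day 4. Cdx1 behaved otherwise, with 87.4 and 74.9 CPM at day 1, close to its 8 h values, and 4.06 and 4.2 CPM at day 4. Cidea was highest in between, at 199 and 207 CPM at day 1, and stood at 10.4 and 12.6 CPM at day 4.

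The repressed genes also took different courses. Socs3 stood lower still at later times, at 32.6 and 32.5 CPM at day 1 and 8.56 and 6.99 CPM at day 4, and Tdh stood at 15.2 and 8.82 CPM at day 1. Gap43, one of the most repressed genes at 8 h, stood above its 0 h level later. It stood at 145 and 127 CPM at day 2, where it had 17.5 and 8.65 CPM at 0 h and 1.04 and 1.26 CPM at 8 h.

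**Figure D5:**
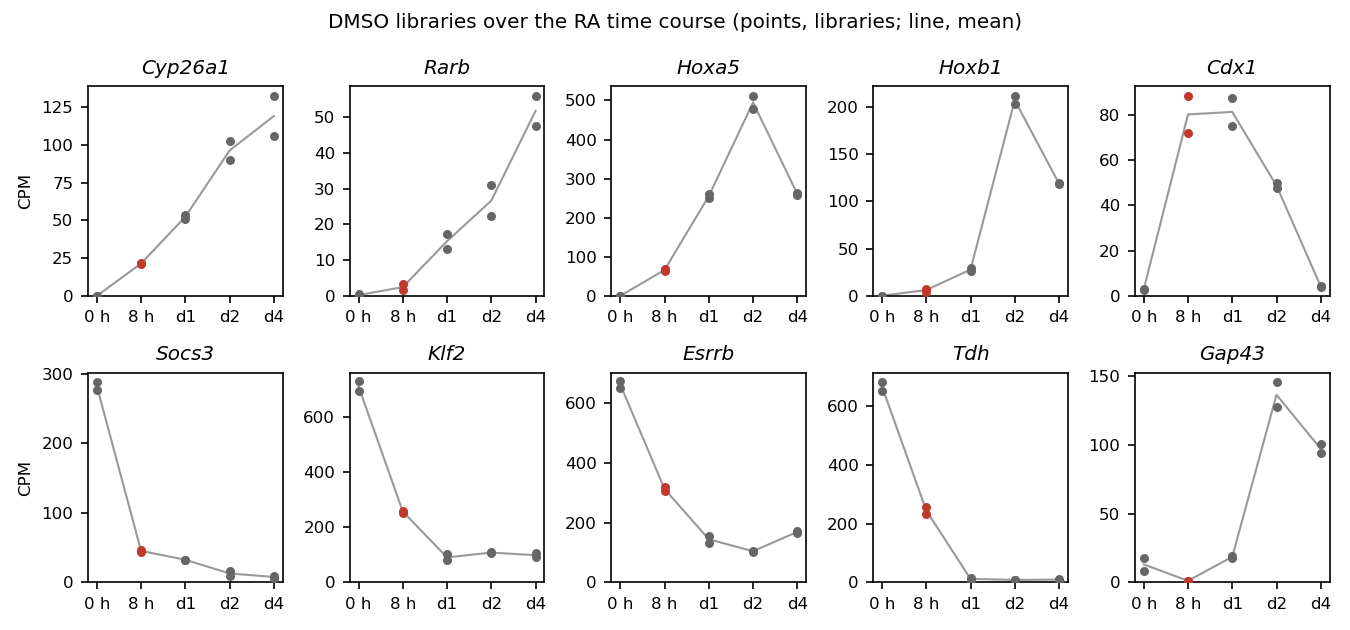
CPM at 0 h, 8 h and days 1, 2 and 4 of RA in DMSO cells for 5 induced genes (top) and 5 repressed genes (bottom), each panel on its own linear axis, with evenly spaced times. Points are libraries (red at 8 h) and the line joins the means. Cdx1 is high at 8 h and day 1 and low by day 4. Gap43 is low at 8 h and above its 0 h level by day 4.

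Cells given auxin, which depletes DPY30, were also collected at 8 h of RA, and their values are set beside those of the DMSO cells without a test. Cyp26a1 stood at 16.1 and 15.1 CPM with auxin against 21.9 and 21.0 CPM in DMSO, and Hoxa5 at 34.1 and 26.4 CPM against 69.0 and 63.8 CPM. Hoxb1 stood at 10.6 and 11.8 CPM against 7.84 and 4.62 CPM, and Cdx1 at 73.7 and 84.8 CPM against 88.3 and 71.8 CPM. Among repressed genes, Socs3 stood at 53 and 58.4 CPM against 44.4 and 46.2 CPM, Klf2 at 297 and 292 CPM against 260 and 252 CPM, and Esrrb at 205 and 192 CPM against 319 and 305 CPM. Auxin-treated cells before RA were not analysed here, so no change over 8 h is given for them.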

How the data were processed

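Quant-seq (Lexogen QuantSeq FWD, which primes from the poly(A) tail and marks strand) was analysed from 22 libraries, of which the 4 DMSO libraries of 0 h and 8 h give the results. The authors deposited counts of reads per 3′ UTR interval (46420 intervals of 20177 genes, GENCODE vM14, mm10), in tables whose header names SlamDunk 0.3.4, whereas the study's methods name HISAT2 2.2.1 and featureCounts for Quant-seq. The tables also count reads mapped to more than 1 place. No interval overlapped another. Counts were summed per gene identifier, and symbols and gene coordinates came from GENCODE vM21, with 2 genes sharing a symbol. Promoter sequences came from RefSeq.

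All 21 distinct libraries in 11 groups were fitted together with edgeR 4.0.16 in R 4.3.3 (quasi-likelihood, TMM), since 2 files of DMSO day 6 were identical and entered as 1. Testing was limited to genes that averaged 10 or more reads in some group. Named genes were drawn from the gene lists, the 20 largest fold changes (without overlap between groups) and the 10 largest CPM changes in each direction among called genes, and a few others, such as Blvrb, Nap1l3 and Hoxb9, chosen after their values were seen. The genes and lists were chosen with earlier results of these data known. For a single gene, an exact permutation test of 2 against 2 libraries cannot go below p = 0.3333. On simulated counts for this comparison, 11539 genes were tested. The fit called 97% of 100 genes given a log2 change of 2 and 92% of 100 given 1.5, with 1 unchanged gene called. The changed genes were drawn from those averaging at least 10 reads at 0 h, and every gene had the same dispersion. These rates therefore do not extend to genes with fewer reads at 0 h, or to genes whose libraries spread more. Alternatives covered the scaling, the filter on low counts, DESeq2 1.42.0, uniquely mapped reads, a replicate block and leaving out each library. The SLAM-seq libraries were not used here. Some genes are not reported here.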

Additional observations from a re-analysis of the deposited data

How the results depend on the processing

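The 399 higher and 334 lower calls became 264 and 207 with DESeq2 (263 and 202 of them shared, over 9644 genes with an adjusted p), 254 and 222 with a mean of at least 50 reads (7774 genes tested) and 1051 and 1037 without the fold threshold. Leaving out 1 library gave 289 to 324 higher and 256 to 286 lower calls. Counts stayed within 1.5 times under the other alternatives: DESeq2 size factors (396 and 341), no TMM (355 and 419), no filter on low counts (428 and 358), a filter on these 4 libraries (371 and 329), a fit of the 4 libraries alone (437 and 381), uniquely mapped reads (354 and 323) and unadjusted p (567 and 465). With a replicate block the counts were 400 and 335, sharing 397 and 328 genes. The replicate numbers do not establish a pairing: deviations from the group means correlated at 0.03 over 5714 genes, with only 2 pairs. 

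With uniquely mapped reads, 334 of the 399 higher calls were made again (370 could be fitted) and the log2 change turned below 0 for 5, chosen here after their values were seen: 4930579G24Rik (-0.22), Ctf1 (-0.033), Hykk (-0.17), Samd5 (-2.16) and Vps8 (-0.39), each with 82.6% or more multimapping reads. Of the lower calls it reversed for Nap1l3 (0.21). When 1 library was left out it ran from -1.83 to 3.70 for Crabp2, from -0.10 to 0.51 for Hoxb9, from -0.35 to 0.23 for Sox1 (0.23 without 0 h replicate 1, 0.21 without 8 h replicate 2) and from -2.25 to 0.29 for Zc3h12a, and the cause was not tested. Samd5 did not pass without 0 h replicate 2, where its log2 change was 2.06. Depth limits genes with few reads: 24 of the higher calls had no read at 0 h. DESeq2 gave no adjusted p for the genes its own filter removes. Among the gene lists DESeq2 gave fewer members (lists with 1 gene in a direction left aside): 3 higher and 3 lower for TGF-β, Nodal and BMP, 3 lower for Wnt, 1 and 5 for formative genes, 5 lower for cholesterol, 2 lower for axon guidance, 2 higher each for Polycomb and cell cycle, 3 higher for homeobox and forkhead, 1 higher each for hypoxia and for retinoid receptors and cofactors, 2 higher for lysosomal genes, 3 and 3 for imprinted genes, 15 and 10 for the zinc finger genes and 5 and 15 for solute carriers.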

Other observations

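Further gene groups were drawn up after the values were seen, so their counts describe these libraries and support nothing else. Of 60 tested lysosomal genes, 17 fell and 6 rose, against 9.08% and 9.21% of all tested genes, and when 1 library was left out 14 to 17 fell and 2 or 3 rose, with 2 without 0 h replicate 1. Tfeb, the factor that drives lysosome genes, fell from 33.6 and 22.8 CPM to 4.70 and 5.88 CPM (-2.31, SE 0.37, edgeR adjusted p = 5.6e-05). The lysosomal hydrolase genes Hexa (-1.63, SE 0.26), Ctsa (-1.49, SE 0.26) and Gaa (-1.39, SE 0.24), the membrane protein gene Scarb2 (-1.56, SE 0.15) and the progranulin gene Grn, from 255 and 217 CPM to 104 and 118 CPM (-1.02, SE 0.14), fell too. Acp5, an acid phosphatase, rose from 12.1 and 9.83 CPM to 29.8 and 32.3 CPM (1.58, SE 0.26).

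Of 29 tested endoplasmic reticulum chaperones and unfolded protein response genes, 8 rose and 0 fell, or 5 rose without 0 h replicate 1 and 4 without 8 h replicate 1. Xbp1, a transcription factor of that response, rose from 36.3 and 37.3 CPM to 99.8 and 81.8 CPM (1.36, SE 0.18), and Herpud1, a protein of ER-associated degradation, from 25.5 and 22.0 CPM to 52.8 and 58.8 CPM (1.31, SE 0.18). Among 40 imprinted genes, 5 rose and 7 fell, but only 2 or 3 rose and 3 or 4 fell whichever library was left out. Peg10 fell from 202 and 202 CPM to 103 and 93.2 CPM (-0.98, SE 0.11) and Cd81 by 1.00 (SE 0.12), whereas Mkrn3 rose (1.23, SE 0.32), although not without 0 h replicate 2 (adjusted p = 0.12) or 8 h replicate 2 (0.15). Among 295 zinc finger genes named Zfp with a number, 27 rose and 17 fell, and among 208 solute carriers 12 rose and 24 fell. When 1 library was left out, 12 to 16 of these zinc finger genes rose and 6 to 13 fell, and 4 to 7 of the solute carriers rose and 16 to 18 fell, the fewest in 3 of these 4 counts without 8 h replicate 2.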
